A study of Rattus norvegicus with 4 samples.

Results

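The 10 genes described here encode receptor chains for inflammatory cytokines in the dorsal root ganglia (DRG), namely Il6st, Il6r, Lifr, Cntfr, Il1r1, Il1rap, Tnfrsf1a, Tnfrsf1b, Il10ra and Il10rb. They were taken by symbol from the protein-coding rows of the deposited table, which holds 33506 genes in all, and each of the 10 matched a single row and passed the filter on low counts. Lumbar DRGs of wild-type Wistar rats were sequenced as 4 libraries, with 2 from vehicle-treated (PBS) and 2 from cisplatin-treated rats. Cisplatin, a platinum-based chemotherapeutic, was given by intraperitoneal injection (0.3 mg/kg on each of P14 and P16). Controls received vehicle (PBS), although a caption of the study calls the vehicle saline. The sample labels place tissue collection 16 days after treatment, whereas the methods give P23. Several DRGs were pooled for each library, and although the study used rats of both sexes, the sources used here do not say which sex each library came from. Replicate numbers are those of the rats in the sample titles.

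Cytokine receptors carry signals from immune cells and glia into the cells of the ganglion. Il6st encodes gp130, the signal-transducing chain shared by interleukin-6, leukaemia inhibitory factor and ciliary neurotrophic factor, which pair it with the chains encoded by Il6r, Lifr and Cntfr and signal mainly through JAK kinases and STAT3. Interleukin-1 and tumour necrosis factor act through receptors that activate NF-kB, whereas interleukin-10 acts through a receptor that restrains inflammation. Members of all these families are known to act on sensory neurons or on the cells around them, and the gp130 cytokines are known for their part in the response to nerve injury.

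In cisplatin-treated rats, gp130 and 2 of the chains that pair with it had lower levels than in vehicle-treated controls, and the third had a higher level. Il6st was 1.81-fold lower, Lifr 2.19-fold lower and Il6r 1.47-fold lower, while Cntfr was 1.42-fold higher. Il1rap, the accessory chain of the interleukin-1 receptor, was 1.77-fold lower, whereas its partner Il1r1 was 1.25-fold higher. Tnfrsf1a and Tnfrsf1b, the tumour necrosis factor receptors, had overlapping groups. None of the 10 genes passed the threshold for differential expression.

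The threshold was a 1.5-fold change together with a p, adjusted by Benjamini-Hochberg over 14719 protein-coding genes, under 0.05 in edgeR's quasi-likelihood test. By this rule 0 of the 10 receptor genes were called, against 0.00679% of all genes tested. DESeq2, which gave no adjusted p for Il10ra, called 0 of the other 9, and limma 0 of the 10. Where the unadjusted p was used instead, with the same limits, Il6st and Lifr were lower and no receptor gene was higher, while 5.32% of all genes tested were lower and 2.8% higher by that rule. Both cisplatin-treated libraries lay below both vehicle-treated libraries in 5 of the 10 genes (21.2% of all genes tested) and above them in 3 (20.6% of all genes tested). The median log2 fold change of the 10 genes was -0.28, and that of all genes tested was -0.01. For a single gene, 2 libraries against 2 cannot give a p below 0.333 in an exact permutation test (two-sided).

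The sequences just before the 3 gp130-family genes with lower levels are shown because these genes shared a direction and lie on the same chromosome. Whether these sequences act as promoters was not tested. Each sequence holds the 250 bases before the gene's start in RefSeq on the gene's own strand (rat build GRCr8), and capitals mark matches to the GC box GGGCGG on either strand. The windows are chr2:45809982-45810231 (plus strand) for Il6st, chr2:57963139-57963388 (plus strand) for Lifr and chr2:177645210-177645459 (minus strand) for Il6r.
Il6st: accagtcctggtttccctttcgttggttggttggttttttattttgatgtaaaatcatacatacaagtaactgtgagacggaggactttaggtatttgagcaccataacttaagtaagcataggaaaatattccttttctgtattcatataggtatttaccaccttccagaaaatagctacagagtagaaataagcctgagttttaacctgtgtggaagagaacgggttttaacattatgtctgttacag
Lifr: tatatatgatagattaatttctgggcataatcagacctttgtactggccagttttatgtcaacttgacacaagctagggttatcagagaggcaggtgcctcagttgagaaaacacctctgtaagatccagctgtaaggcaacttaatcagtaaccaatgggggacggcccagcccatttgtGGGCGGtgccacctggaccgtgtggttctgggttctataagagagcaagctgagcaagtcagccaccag
Il6r: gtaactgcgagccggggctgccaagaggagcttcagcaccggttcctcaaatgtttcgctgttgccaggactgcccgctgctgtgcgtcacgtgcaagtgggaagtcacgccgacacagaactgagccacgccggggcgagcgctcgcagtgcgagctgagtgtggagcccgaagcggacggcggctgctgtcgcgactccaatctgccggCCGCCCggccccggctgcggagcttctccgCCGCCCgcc
The Il6r window held 29 CG dinucleotides, and those of Il6st and Lifr held 3 each, with a median of 8 over 21851 windows of protein-coding genes. The GC box matched in the windows of Lifr (1 match) and Il6r (2 matches) and not in that of Il6st, and 38.9% of all windows held it. RefSeq gave 10 windows for 9 of the 10 receptor genes, with 2 overlapping windows for Il1rap, and Cntfr had none in the table. Over these 10 windows, 8 held the GC box, both Il1rap windows among them. The STAT motif TTCNNNGAA, which reads the same on both strands, matched in 0 of the 10 windows and in 7.29% of all windows. The NF-kB consensus, searched on both strands, matched in 3 of the 10 windows and in 3.83% of all windows. The 3 were that of Il1r1 and both of Il1rap, whose overlapping windows hold the same matched site. Overlaps between motifs were not removed, and a match is a description of the letters only.

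Levels of different genes were compared in FPKM, the deposited counts scaled by gene length and by 1 factor per library. Tnfrsf1a had the highest mean level of the 10 genes over the 4 libraries, with 35.3 FPKM, followed by Cntfr with 28.7 and Il6st with 14.7. Lifr had a mean of 7.89 FPKM and Il10rb of 7.08. The ligand-binding chain of the interleukin-6 receptor, Il6r, had a mean of 2.3 FPKM, close to Il1rap at 2.07 and above Il1r1 at 1.14. Tnfrsf1b at 0.638 FPKM and Il10ra at 0.434 FPKM were the lowest. In this order, 3 of the 9 steps separated genes whose ranges over the 4 libraries did not overlap, namely Cntfr from Il6st, Il10rb from Il6r and Il1r1 from Tnfrsf1b. At the other 6 steps the ranges overlapped, so that Tnfrsf1a and Cntfr, for example, were not apart (33.2 to 36.4 and 20.6 to 39.8 FPKM).

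**Figure D1:**
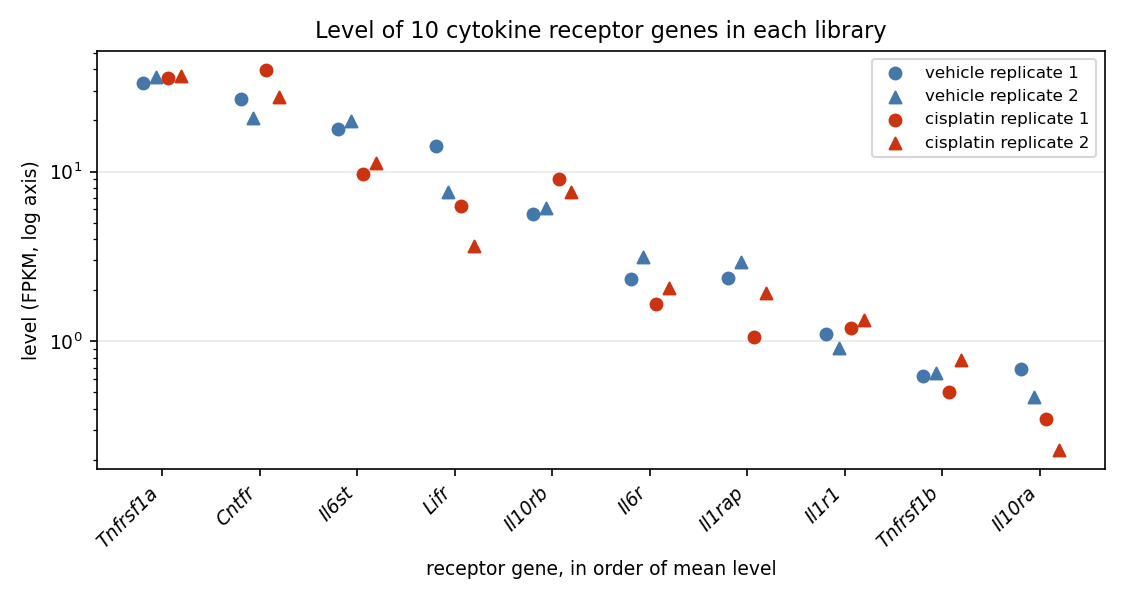
Level of each receptor gene in FPKM (log axis) in every library, in order of the mean over the 4 libraries, with blue for vehicle-treated, red for cisplatin-treated, circles for replicate 1 and triangles for replicate 2. Tnfrsf1a lies between 33.2 and 36.4 FPKM in all 4 libraries, and Il10ra between 0.23 and 0.688 FPKM.

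Il6st (ENSRNOG00000013963; chromosome 2, 44289393 to 44314944, plus strand, Rnor_6.0), the gene of gp130, had 56.8 and 63.9 CPM (counts scaled to library size and TMM factor) in vehicle-treated and 30.8 and 35.8 CPM in cisplatin-treated rats. The groups did not overlap, and the gap between them was larger than the spread within either. The group means were 60.4 ± 4.99 and 33.3 ± 3.51 CPM (SD, n = 2 each). The log2 fold change was -0.86 (standard error 0.19), with an unadjusted p of 0.00487 and an adjusted p of 0.509 from edgeR. DESeq2 gave an adjusted p of 0.1. When each library was left out in turn, the log2 fold change of Il6st stayed between -0.97 and -0.75 and the unadjusted p from edgeR between 0.0111 and 0.0365.

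Lifr (ENSRNOG00000011696; chromosome 2, 56426367 to 56489415, plus strand), which encodes the receptor chain that binds leukaemia inhibitory factor, had a level that differed between replicates as well as between groups. It had 77.3 and 42.2 CPM in vehicle-treated and 34.6 and 19.9 CPM in cisplatin-treated rats. Replicate 2 was the lower library in each group, and vehicle replicate 2 lay close to cisplatin replicate 1. EdgeR put the change at -1.13 ± 0.39 (log2, standard error, adjusted p = 0.509), with an unadjusted p of 0.031. The unadjusted p was 0.154 without vehicle replicate 1, where the log2 fold change was -0.62, and 0.0793 without cisplatin replicate 2, where it was -0.79.
Il6r (ENSRNOG00000020811; chromosome 2, 189205701 to 189254628, minus strand), the gene of the interleukin-6-binding chain, had 10.9 and 14.8 CPM in vehicle-treated and 7.79 and 9.69 CPM in cisplatin-treated rats. The highest cisplatin-treated library was below the lowest vehicle-treated library. In edgeR the change was -0.56 ± 0.28 (log2, standard error, adjusted p = 0.55), and it was -0.32 without vehicle replicate 2. Among the 45 pairs of the 10 genes, Il6st and Il6r had the most alike profiles over the 4 libraries, 0.185 apart in centred log2 CPM (root mean square). The least alike were Lifr and Il10rb, at 0.901.

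Cntfr (ENSRNOG00000047307; chromosome 5, 58041146 to 58078545, minus strand), the gene of the membrane-anchored chain that binds ciliary neurotrophic factor, had 50.9 and 39.5 CPM in vehicle-treated and 75.8 and 52.6 CPM in cisplatin-treated rats. Cisplatin replicate 2 was only slightly above vehicle replicate 1, and the groups overlapped when library size alone was used in place of TMM. EdgeR put the change at 0.51 ± 0.26 (log2, standard error, adjusted p = 0.557), and it was 0.22 without cisplatin replicate 1 and 0.34 without vehicle replicate 2. Like Lifr and Il10ra, Cntfr was lower in replicate 2 of each group. The summed level of 10 sensory neuron markers was 30565 and 23230 CPM in vehicle-treated and 35968 and 26056 CPM in cisplatin-treated rats, so that it too was lower in replicate 2 of each group. The summed level of 5 Schwann cell markers went the other way, with 60005 and 154422 CPM in vehicle-treated and 47271 and 135467 CPM in cisplatin-treated rats. The part of these cell types in the levels of Lifr, Cntfr and Il10ra was not tested. In whole tissue, fewer cells of a type and less RNA per cell cannot be told apart.

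**Figure D2:**
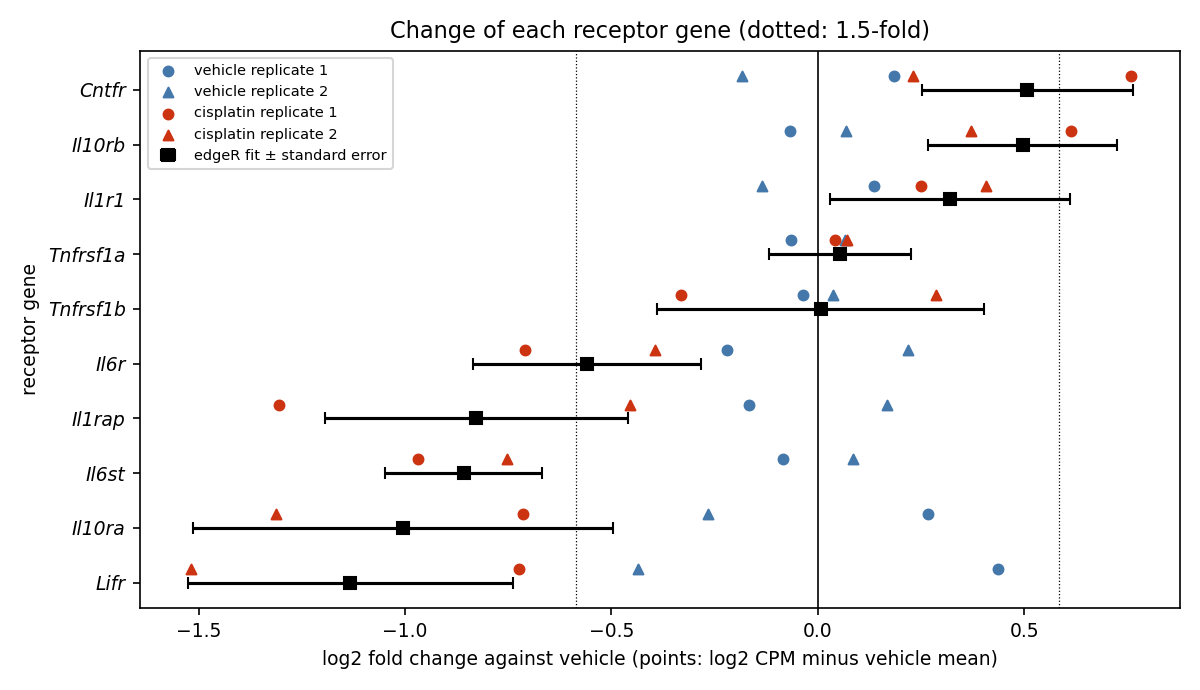
Log2 fold change of each receptor gene from edgeR with its standard error (black squares and bars), and above it the log2 CPM of each library minus the vehicle mean (blue, vehicle-treated; red, cisplatin-treated; circles, replicate 1; triangles, replicate 2). Dotted lines mark 1.5-fold. Lifr, Il10ra, Il6st, Il1rap and Il6r lie to the left with non-overlapping groups, and Tnfrsf1a and Tnfrsf1b lie near 0.

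The interleukin-1 receptor chains went in opposite directions. Il1rap (ENSRNOG00000001928; chromosome 11, 77463954 to 77593207, minus strand), the accessory chain that the receptor needs in order to signal, had 8.15 and 10.3 CPM in vehicle-treated and 3.7 and 6.67 CPM in cisplatin-treated rats. Both cisplatin-treated libraries were below both vehicle-treated libraries, although they differed from each other by more than the vehicle-treated libraries did. In edgeR the change was -0.83 ± 0.37 (log2, standard error, adjusted p = 0.532), and it was -1.31 without cisplatin replicate 2 but -0.45 without cisplatin replicate 1.
Il1r1 (ENSRNOG00000014504; chromosome 9, 46962288 to 47036670, plus strand), the ligand-binding chain, had 112 and 73 counts in the vehicle-treated libraries against 123 and 127 after cisplatin, or 4.47 and 3.71 CPM against 4.84 and 5.4 CPM. The groups did not overlap, but cisplatin replicate 1 was close to vehicle replicate 1. EdgeR put the change at 0.32 ± 0.29 (log2, standard error, adjusted p = 0.723), and it was 0.19 without vehicle replicate 2.

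The tumour necrosis factor receptors differed little between the groups. Tnfrsf1a (ENSRNOG00000031312; chromosome 4, 157864969 to 157877633, plus strand), the death-domain receptor found on most cells, had 72.3 and 79.2 CPM in vehicle-treated and 77.8 and 79.4 CPM in cisplatin-treated rats. The groups overlapped, and edgeR put the change at 0.05 ± 0.17 (log2, standard error, adjusted p = 0.928). Tnfrsf1b (ENSRNOG00000016575; chromosome 5, 163136390 to 163167299, minus strand), which has no death domain and is typical of immune and endothelial cells, had 46 and 38 counts in the vehicle-treated libraries against 38 and 54 after cisplatin. Its groups overlapped too, with a change of 0.01 ± 0.4 in edgeR (log2, standard error, adjusted p = 0.996) whose sign changed with library size alone, at -0.06. The standard error of Tnfrsf1b was more than that of Tnfrsf1a, so its change is known less closely at this depth.

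The interleukin-10 receptor chains also went in opposite directions. Il10ra (ENSRNOG00000016308; chromosome 8, 49560035 to 49573742, minus strand), the ligand-binding chain found mainly on immune cells, had 35 and 19 counts in the vehicle-treated libraries against 18 and 11 after cisplatin. Scaled to depth, these were 1.4 and 0.965 CPM against 0.708 and 0.468 CPM, and the groups did not overlap, although these are low values next to the level that 3 counts stand for, 0.118 to 0.152 CPM. In edgeR the change was -1.01 ± 0.51 (log2, standard error, adjusted p = 0.557).
Il10rb (ENSRNOG00000028638; chromosome 11, 31560530 to 31582457, plus strand), the chain shared with interleukin-22 and type III interferons, had 10.3 and 11.4 CPM in vehicle-treated and 16.6 and 14 CPM in cisplatin-treated rats. Both cisplatin-treated libraries were above both vehicle-treated libraries. EdgeR put the change at 0.50 ± 0.23 (log2, standard error, adjusted p = 0.532).

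A receptor chain works with its partner, so the ratio of paired chains was also compared within each library, in FPKM. Cntfr to Il6st was 1.5 and 1.03 in vehicle-treated and 4.11 and 2.46 in cisplatin-treated rats. Il1rap to Il1r1 was 2.12 and 3.22 in vehicle-treated and 0.889 and 1.44 in cisplatin-treated rats, so that the accessory chain was above its partner in both vehicle-treated libraries and below it in cisplatin replicate 1. Il10ra to Il10rb was 0.122 and 0.0769 in vehicle-treated and 0.0386 and 0.0302 in cisplatin-treated rats. These 3 pairs did not overlap between the groups, with differences of 1.35, -1.21 and -1.51 on the log2 scale. Each had the smallest exact permutation p the design allows (two-sided p = 0.333, adjusted p = 0.5 over 6 ratios). In each pair the single genes were already separated in FPKM, in opposite directions. The separation of the ratios and its p were thus fixed by the single genes and are no further evidence.
Il6r to Il6st was 0.13 and 0.157 in vehicle-treated and 0.171 and 0.183 in cisplatin-treated rats, a log2 difference of 0.31, and its groups did not overlap either (exact p = 0.333, two-sided). Without vehicle replicate 1 that difference was 0.17. Lifr to Il6st overlapped between the groups, at 0.786 and 0.382 against 0.648 and 0.322, a log2 difference of -0.26 that changed sign without vehicle replicate 1 (0.26) and without cisplatin replicate 2 (0.24). Tnfrsf1b was 0.0187 and 0.018 of Tnfrsf1a in vehicle-treated and 0.0142 and 0.0213 in cisplatin-treated rats, so that Tnfrsf1a was the main tumour necrosis factor receptor in transcript level in every library.

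**Figure D3:**
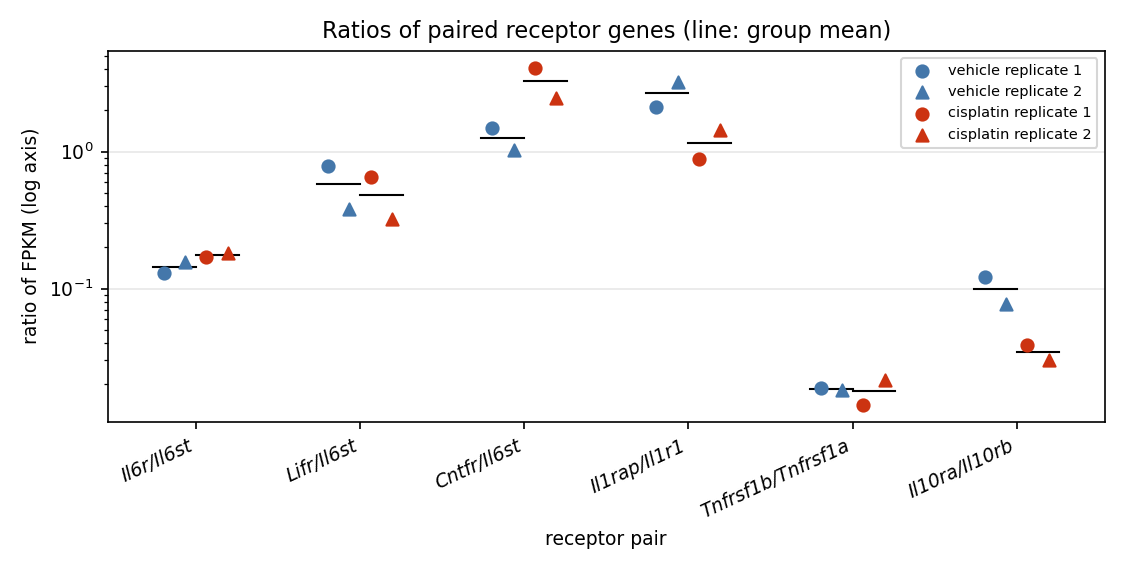
Ratio of FPKM of 6 pairs of receptor genes (log axis) in each library, with black lines at the group means (blue, vehicle-treated; red, cisplatin-treated; circles, replicate 1; triangles, replicate 2). The ratios of Cntfr to Il6st, Il1rap to Il1r1 and Il10ra to Il10rb are separated between the groups, and those of Lifr to Il6st and Tnfrsf1b to Tnfrsf1a overlap.

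Gene length, as the deposited table gives it, moved with the fold change over all genes. The median log2 fold change was 0.20 among the shortest genes tested when they were split into 4 equal classes by length (105 to 1531 bases) and -0.21 in the longest (3624 to 28192 bases). Of the receptor genes, Lifr (5388 bases), Il6r (4597) and Il1r1 (3951) fell in the longest class, the first 2 lower and the last higher after cisplatin. Il1rap (3395 bases) and Il6st (3112), both lower, came next, and the other 5, from 1805 bases (Il10rb) to 2894 (Tnfrsf1b), were shorter. Among those 5, Il10rb and Cntfr (1862 bases) were higher and Il10ra (1992 bases) was lower. With a gene length offset, the log2 fold change was -0.85 for Lifr (unadjusted p of 0.0802), -0.73 for Il6st (unadjusted p of 0.00932), -0.69 for Il1rap and -0.33 for Il6r in edgeR. Those of Cntfr and Il10rb were 0.50 and 0.49, and that of Il1r1 was 0.50. The part of length in these levels was not tested further.

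Of 83 other genes of these pathways, 68 were tested and 0 passed the threshold in edgeR, or in DESeq2, in either direction. By the rule on the unadjusted p, 3 of the 68 were higher and 1 lower, where 2.8% and 5.32% of all genes tested were. The median log2 fold change was -0.04 for 11 ligands, -0.01 for 15 related receptors, -0.13 for 29 signal transducers and 0.02 for 13 target genes.
Ligand transcripts covered a wide range of counts. Cntf, made by Schwann cells, had 2765 and 3593 counts in the vehicle-treated libraries against 2221 and 4667 after cisplatin. Il33, an interleukin-1 family ligand whose receptor also uses the Il1rap chain, had 1479 and 2323 counts against 1067 and 2423. Il6 had 1 and 0 counts against 0 and 1, and Il1b had 11 and 10 against 11 and 7. Il10 had 0 counts in all 4 libraries, which allows up to 0.118 to 0.152 CPM per library. These 5 ligands were singled out after their values were seen. Of the ligands tested, Ltb, a tumour necrosis factor family member of lymphocytes, had the largest absolute log2 fold change, 1.06 (adjusted p = 0.648 from edgeR), from 10 and 4 counts in the vehicle-treated libraries against 23 and 9 after cisplatin. The table holds a second gene named Ltb, and reads may be split between the copies, so its values are uncertain. Clcf1, which encodes a ciliary neurotrophic factor receptor ligand, had 17 and 30 counts in vehicle-treated and 41 in each cisplatin-treated library, a log2 change of 0.63 (edgeR, adjusted p = 0.694).

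Among the related receptors, Ifngr2, a chain of the interferon-gamma receptor from the same class as Il10rb, had 616 and 696 counts in the vehicle-treated libraries against 1246 and 1025 after cisplatin. Its change in edgeR was 0.63 ± 0.24 (log2, standard error, adjusted p = 0.516). In 10 of the 29 signal transducers both cisplatin-treated libraries lay below both vehicle-treated libraries, with none above (21.2% and 20.6% of all genes tested).
Traf6, the ubiquitin ligase that relays interleukin-1 receptor signals, had 96 and 59 counts in the vehicle-treated libraries against 40 and 43 after cisplatin, with a change of -1.01 ± 0.35 in edgeR (log2, standard error, adjusted p = 0.509). Adam10, a protease that sheds membrane proteins including Il6r, had 2907 and 3634 counts in the vehicle-treated libraries against 1645 and 2985 after cisplatin. Its groups overlapped in CPM, though not with library size alone, and edgeR gave it -0.65 on the log2 scale (adjusted p = 0.601). Several listed genes that act downstream of gp130 were named after their values were seen. Jak1 and Stat3 had log2 fold changes of -0.03 and 0.04 with overlapping groups. Jak2, Tyk2 and Ptpn11 had -0.35, -0.23 and -0.42, and both cisplatin-treated libraries lay below both vehicle-treated libraries in each.
Of the target genes, Ccl2, a chemokine gene induced by NF-kB, had a log2 change of 1.32 (edgeR, adjusted p = 0.509) with non-overlapping groups. Lcn2, the lipocalin gene induced by interleukin-1, had 116 counts in each vehicle-treated library and 192 and 324 in the cisplatin-treated libraries, and edgeR gave it 1.02 on the log2 scale (adjusted p = 0.509). Socs3, the feedback inhibitor induced by gp130 and also named after its values were seen, had 125 and 114 counts in the vehicle-treated libraries against 73 and 130 after cisplatin. Its groups overlapped in CPM, but with library size alone both cisplatin-treated libraries lay below both vehicle-treated libraries.

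**Figure D4:**
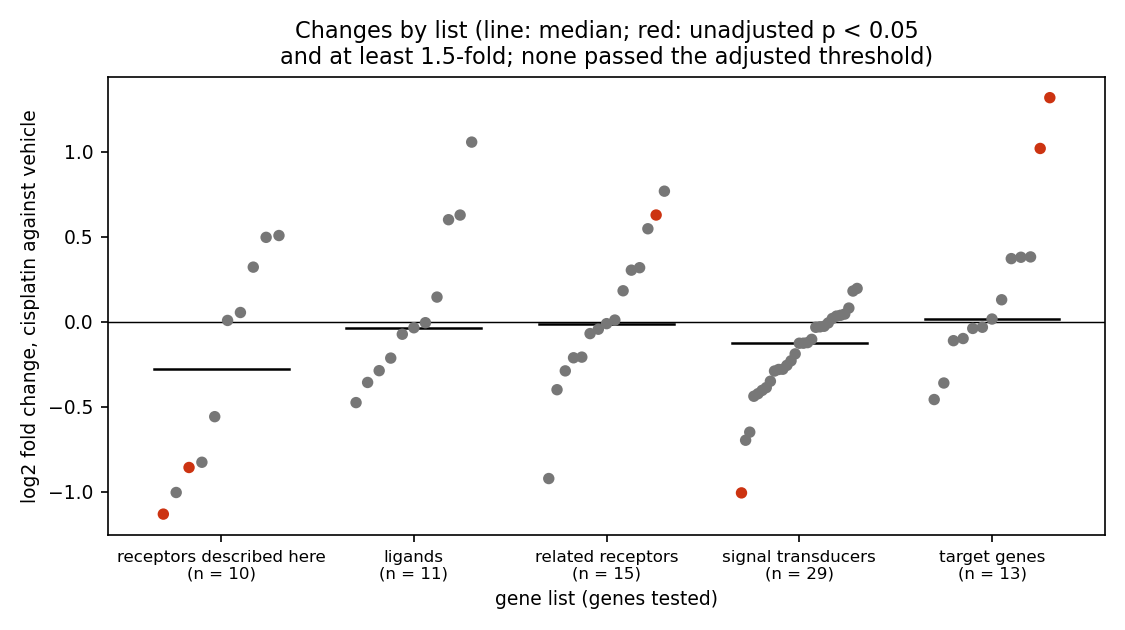
Log2 fold change of the 10 receptor genes and of the tested genes of 4 pathway lists, each point a gene and each line the median of its list. Red marks an unadjusted p under 0.05 with a fold change of at least 1.5, which holds for Lifr and Il6st among the receptor genes, Ifngr2, Traf6, Ccl2 and Lcn2, and no gene passed the adjusted threshold.

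The libraries held 21384801 to 25618417 counts, and each pair differed by more than the sampling noise (a ratio of chi-square to degrees of freedom of 47.6 or more). The smallest ratio, 47.6, was between vehicle replicate 2 and cisplatin replicate 2. Within a group it was 124 for vehicle and 162 for cisplatin. Across the groups the other ratios ran from 124 to 261. All 10 sensory neuron markers passed the filter, with mean levels from 24.4 FPKM (Trpv1) to 2461 FPKM (Nefl). The summed level of 14 macrophage markers was 84.2 and 96.7 CPM in vehicle-treated and 94.6 and 105 CPM in cisplatin-treated rats, with overlapping groups, and of these markers 5 lay above and 4 below in both cisplatin-treated libraries (20.6% and 21.2% of all genes tested). That of 5 fibroblast markers was 5650 and 7490 CPM in vehicle-treated and 2746 and 5386 CPM in cisplatin-treated rats. These sums did not overlap, although cisplatin replicate 2 was close to vehicle replicate 1. Of the fibroblast markers, Col1a1, Col1a2 and Pdgfra were below in both cisplatin-treated libraries, and Dcn and Lum overlapped. Summed levels of satellite glia markers were 317 and 444 CPM against 283 and 417, of endothelial markers 76.7 and 92 CPM against 61.5 and 86.1, of T cell markers 3.52 and 5.39 CPM against 4.96 and 5.78, and of neutrophil markers 27.9 and 18.8 CPM against 29.3 and 49.2. The sum does not stand for each satellite glia marker. Of these 4 markers, 1 lay below in both cisplatin-treated libraries and 0 above, with log2 fold changes from -1.11 to 0.55. Of the endothelial markers Cldn5 was at 0 in every library, and Pecam1 was not found under that name. The part of these cell types in the levels of the receptor genes was not tested.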

How the data were processed

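Whole lumbar DRGs were measured by poly(A) RNA sequencing (NovaSeq, paired-end). The submitters' processing notes name HISAT2 2.0.5, StringTie 1.3.3b, featureCounts 1.5.0-p3 and the rat build Rnor_6.0. The protocol names both directional and non-directional libraries, so the use of strand is unclear and genes that overlap are uncertain. The authors deposited a table of whole-number counts that were not normalised. The deposited FPKM are these counts scaled by gene length and by 1 factor per library.

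Groups and replicate numbers came from the sample labels. Counts of 14719 of 22293 protein-coding genes kept by filterByExpr were normalised with TMM and tested with edgeR 4.0.16 (glmQLFit, glmQLFTest, R 4.3.3), with no block. Calls required a Benjamini-Hochberg adjusted p under 0.05 over all genes tested and a fold change of at least 1.5. Standard errors came from the fold change and its F value. CPM are TMM-scaled, and log2 CPM profiles used a prior count of 2. Alternatives were DESeq2 1.42.0, limma 3.58.1 on log2(FPKM + 1) and log2(FPKM + 0.1), other normalisations and filters, a lowess offset of log2 CPM on gene length (span 0.3), the replicate block, and fits that left out single libraries. The pseudocount makes limma's fold changes too small for low genes. A floor of 3 counts covers counting error only, since these reads carry no molecular identifiers. Sequence windows before gene starts are from RefSeq (GRCr8), matched by symbol, and promoter activity was not tested. The tests were tested on simulated data.

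The receptor genes, gene lists and tests were chosen with earlier results of these data known. Pathway genes were named if called in edgeR with or without the block or if they passed an unadjusted p under 0.05 with a 1.5-fold change, and for a list with none, the 2 with the largest change. Where the text says so, genes were named after their values were seen, and 1 listed gene is not reported here by name. Nothing says that the libraries came from separate litters or cages, and p-values measure the spread between these samples.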

Additional observations from a re-analysis of the deposited data

How the results depend on the processing

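Of 160 refits of single receptor genes, 150 kept their direction and their side of the threshold. In 5, Tnfrsf1b changed sign, its log2 fold change being -0.0594 with library size alone, -0.0112 in limma on log2(FPKM + 0.1), -0.0170 with the replicate block and, with 1 library left out, between -0.33 and 0.29. The remaining 5 passed the threshold, all of them with the block. Apart from DESeq2 and the block, these fits called few genes of any kind. Staying on the same side of the threshold therefore says little about the receptor genes. Same-numbered libraries come from different rats and share only the number in their titles. The deposited columns number the cisplatin-treated libraries differently, so this pairing is uncertain. The difference between replicates 2 and 1 correlated between the groups across genes (Pearson's r = 0.444), which are not independent. With the replicate block, which called 7.72% of all genes lower and 3.59% higher, edgeR called 3 receptor genes lower, Il6st (adjusted p = 0.00159), Lifr (adjusted p = 0.000538) and Il1rap (adjusted p = 0.0282), while Cntfr (adjusted p = 0.0179) stayed under a 1.5-fold change, and it called 4 pathway genes (Ifngr2, Ccl2 and Lcn2 higher, Adam10 lower). With the block and the gene length offset (4.71% of all genes lower, 2.89% higher) it called 2 receptor genes, both lower, and 3 pathway genes. In 4 libraries the block leaves little to estimate each gene's own spread. The adjusted p with the block therefore lean on dispersion shared across genes. This common dispersion was 0.0711 without the block and 0.0209 with it, both without the length offset. Without the block, the adjusted p of Il6st ranged from 0.1 in DESeq2 to 0.996 without cisplatin replicate 1.

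Over all genes, 0 were called higher and 1 lower. These counts became 529 and 1136 when the block was added, 425 and 694 when the length offset joined it, 50 and 90 in DESeq2 and 2 and 2 in limma on log2(FPKM + 1). One gene was called higher without a filter, with at least 10 counts in every library and in limma on log2(FPKM + 0.1) (1 in each). Leaving out 1 library gave 0 to 4 higher and 2 to 5 lower. Receptor genes at an unadjusted p under 0.05 numbered 1 with the length offset, where Lifr dropped out, and 1 to 3 with 1 library left out. The median log2 fold change of the receptor genes was -0.122 with the length offset alone and -0.117 with the offset and the block. That of all genes tested was then 0.0722 and 0.0716. In limma on log2(FPKM + 1) the receptor median was -0.14. With 1 library left out, the receptor median ranged from -0.53 (without cisplatin replicate 2) to -0.14 (without vehicle replicate 2). The log2 difference of the Lifr to Il6st ratio ranged from -0.78 to 0.26, and that of Tnfrsf1b to Tnfrsf1a from -0.37 to 0.22, with 1 library left out. The cause of these shifts was not tested. With 2 libraries per group, one left alone is assumed to vary like the others, and Il10ra and Tnfrsf1b are limited by depth.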
